A study of Mus musculus with 12 samples.

Results

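GATA factors are zinc finger transcription factors that bind the DNA motif they are named after, and the FOG proteins (Friend of GATA) are zinc finger cofactors that bind to GATA factors rather than to DNA. GATA1, GATA2 and GATA3 are known mainly for blood, mast cell, T cell and parts of neural development, whereas GATA4, GATA5 and GATA6 act in heart, gut and other mesoderm and endoderm derivatives. FOG1 (encoded by Zfpm1) and FOG2 (encoded by Zfpm2) can turn a GATA factor into a repressor by bringing in the NuRD and CtBP corepressors. Several GATA genes are classical targets of Polycomb silencing in cells that do not use them, which is carried out through the histone mark H3K27me3 deposited by EZH2. All 8 genes of this family, the 6 GATA genes and the 2 FOG genes, were chosen by their symbols out of 55536 genes in the files.

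The 12 libraries were bulk total RNA-seq of primary mouse oligodendrocyte precursor cells (OPCs), cultured with PDGF-AA and bFGF from the brains of pups aged P4 to P6, where several brains were pooled for each experiment. The labels name the cells Sox10GFP+ OPCs and carry the tag EAE, the mouse model of multiple sclerosis, while the protocols describe selection by Sox10-GFP or by CD140a beads from pups and mention no disease induction in these cultures. There were 4 groups with 3 libraries each, and the replicates came from different litters. Ctr-OPCs had neither agent, EZH2i-OPCs had 1.5 µM of the EZH2 inhibitor EPZ011989 for 4 days with renewal every 48 h, IFN-γ-OPCs had 100 ng/ml of IFN-γ for 6 h, and IFN-γ+EZH2i-OPCs had the inhibitor for 4 days and then IFN-γ together with fresh inhibitor for 6 h. Estimated counts summed to between 17403893 and 66546052 per library. The markers of OPCs (Pdgfra, Cspg4, Olig1, Olig2, Sox10, Ptprz1) were present in all libraries, with summed levels of 646 to 1377 TPM (reads per transcript length, scaled to the same total in each library), and 2 of these 6 were lower with IFN-γ in both IFN-γ comparisons. Markers of microglia or macrophages summed to at most 0.364 TPM in any library, and those of T cells to at most 0.426 TPM. The 5 astrocyte markers summed to 54.8 to 175 TPM in Ctr-OPCs and 142 to 277 TPM in EZH2i-OPCs. They summed to 88.5 to 204 TPM in IFN-γ-OPCs and 133 to 260 TPM with both agents. The part of astrocytes in the members' values was not tested.

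On the scale of TPM, which accounts for transcript length, the FOG genes were expressed in Ctr-OPCs and the GATA genes were barely present. The 2 FOG genes summed to 7.66 ± 1.96 TPM (SD, n = 3) in Ctr-OPCs, and the 6 GATA genes to 0.166 ± 0.0829 TPM. With EZH2i the GATA sum was 3.0, 0.917 and 0.823 TPM in replicates 1, 2 and 3, against 0.195, 0.232 and 0.0731 TPM in Ctr-OPCs. With both agents it was 5.35, 1.82 and 0.763 TPM, against 1.51, 0.545 and 0.151 TPM with IFN-γ alone. The GATA sums of EZH2i-OPCs thus lay above all Ctr libraries, while those of IFN-γ+EZH2i-OPCs overlapped those of IFN-γ-OPCs. The FOG sum overlapped between groups in both of these comparisons, with 8.00 ± 1.21 TPM in EZH2i-OPCs, 5.45 ± 1.39 TPM in IFN-γ-OPCs and 5.26 ± 2.22 TPM in IFN-γ+EZH2i-OPCs. These sums are given as a description, with no test.

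**Figure D1:**
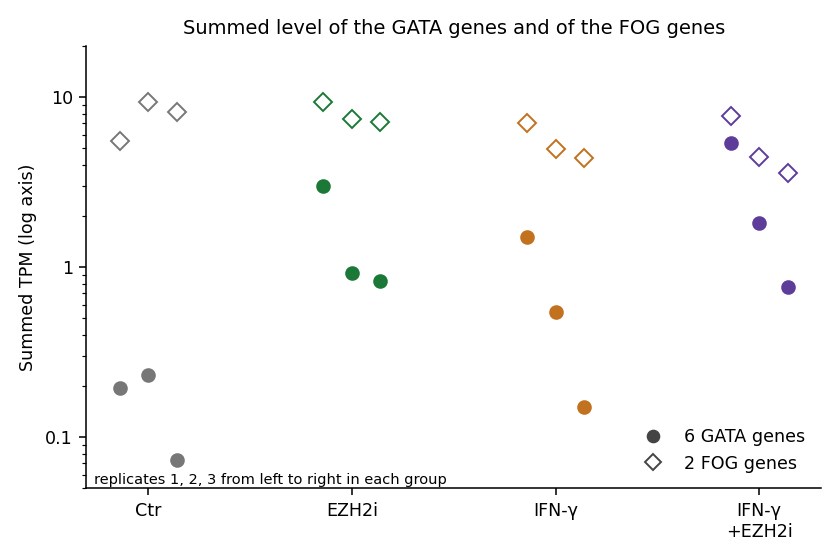
Summed TPM (log axis) of the 6 GATA genes (filled circles) and of the 2 FOG genes (open diamonds) in each of the 12 libraries, by group, with replicates 1, 2 and 3 from left to right. The GATA sum ran from 0.0731 to 0.232 TPM in Ctr-OPCs and from 0.823 to 3.0 TPM in EZH2i-OPCs, whereas the FOG sum stayed between 3.56 and 9.39 TPM in all libraries.

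Within Ctr-OPCs the order by mean TPM was Zfpm2 (4.62), Zfpm1 (3.04), Gata2 (0.161), Gata3 (0.00298) and Gata6 (0.00198), and Gata1, Gata4 and Gata5 had no reads. The ranges of Zfpm2 and Zfpm1 overlapped, Gata2 lay below both and above the rest, and the genes from Gata3 downwards could not be ordered. With EZH2i, Gata6 (0.861 TPM) moved up to the third place, but its range overlapped that of Gata2 (0.432 TPM), whose range overlapped that of Gata4 (0.226 TPM). The same 3 GATA genes followed the FOG genes in IFN-γ+EZH2i-OPCs, at 1.19, 0.989 and 0.316 TPM, again with overlapping ranges. Gata5, a regulator of heart and gut development, had 1 count in replicate 3 of IFN-γ-OPCs and no counts in the other 11 libraries, where up to 3 counts per library could be present by counting error alone. As these are bulk samples, a low level in all cells and a higher level in a few cells cannot be told apart, nor can fewer cells of a type and less RNA per cell.

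The sequences upstream of the start site are shown for 3 members that cover the range of levels, as a CpG-rich start is a common feature of genes under Polycomb control. They are the 250 bases before the RefSeq start (GRCm38.p6), written 5′ to 3′ on the strand of the gene, with CpG dinucleotides in capitals. Gata1 was near 0 in all groups (chrX:7967911-7968160, minus strand), Gata2 is shown at its distal start (chr6:88193641-88193890, plus strand), to which most of its reads were assigned, and Zfpm1 was expressed in all libraries (chr8:122281891-122282140, plus strand).
Gata1: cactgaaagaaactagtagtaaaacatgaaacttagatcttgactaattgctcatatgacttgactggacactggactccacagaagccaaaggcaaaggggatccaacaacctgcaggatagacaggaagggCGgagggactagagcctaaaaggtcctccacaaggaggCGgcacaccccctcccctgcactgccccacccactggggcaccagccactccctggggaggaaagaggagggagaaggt
Gata2: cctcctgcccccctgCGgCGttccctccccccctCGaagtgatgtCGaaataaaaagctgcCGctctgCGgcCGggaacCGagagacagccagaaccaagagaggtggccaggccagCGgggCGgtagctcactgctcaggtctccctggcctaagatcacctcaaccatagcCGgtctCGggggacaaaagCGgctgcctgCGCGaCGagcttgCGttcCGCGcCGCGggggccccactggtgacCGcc
Zfpm1: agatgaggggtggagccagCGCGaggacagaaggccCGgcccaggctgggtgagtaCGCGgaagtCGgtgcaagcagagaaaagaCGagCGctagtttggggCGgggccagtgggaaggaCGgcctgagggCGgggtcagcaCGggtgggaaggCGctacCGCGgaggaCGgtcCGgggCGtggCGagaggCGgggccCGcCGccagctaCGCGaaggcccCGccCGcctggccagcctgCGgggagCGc
The Gata1 window held 2 CpG, and 81.2% of the 32851 promoter windows in the table held at least as many. The Gata2 window held 22 (14.8% of windows held at least as many) and the Zfpm1 window 28 (7.6%). The windows of Gata3 and Gata5, not printed, held 19 and 22. None of these windows, nor the second RefSeq window of Gata2, held a GATA motif, searched as AGATAA and its variants with T as the first letter, G as the last letter or both, on both strands, whereas 26.5% of all windows did. Such a match would be a description and not a binding site, and its lack says only that these letters are not in the window.

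Counts were tested with edgeR's quasi-likelihood test over 18995 genes past a filter on low counts, with all 12 libraries in one fit, and a gene was called at a Benjamini-Hochberg adjusted p under 0.05. Of the 8 members, 5 passed the filter (Gata2, Gata4, Gata6, Zfpm1 and Zfpm2), of which Gata4 and Gata6 passed only through the EZH2i-treated libraries. Gata1, Gata3 and Gata5 did not, and are described by their counts. CPM are counts scaled to the library total after TMM normalization. A group in which every library had at most 3 counts was taken as at the floor, and a fold against it is a lower bound computed with 3 counts per library.

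GATA6, a regulator of primitive endoderm, heart and vascular smooth muscle, was the member with the clearest difference upon EZH2 inhibition. Gata6 (chromosome 18, 11052064 to 11085635, plus strand) had 1, 0 and 0 counts in replicates 1, 2 and 3 of Ctr-OPCs, and 118, 52 and 63 counts in EZH2i-OPCs (4.22, 1.42 and 0.956 CPM). All EZH2i libraries were above all Ctr libraries. Gata6 passed the filter on low counts only through the EZH2i-treated libraries, so a difference in this direction was partly built in. Gata6 was at least 20.2-fold higher in EZH2i-OPCs (edgeR adjusted p = 0.0202), and it was 1 of 5 tested members called in a comparison in which 0.405% of all genes were called, 0.405% higher and none lower. In IFN-γ-OPCs the counts were 8, 5 and 4 (0.268, 0.133 and 0.0617 CPM), and in IFN-γ+EZH2i-OPCs they were 118, 70 and 60 (5.04, 2.13 and 1.49 CPM), again with no overlap. Here the log2 fold change was 4.31 ± 0.78 (SE, edgeR adjusted p = 0.0410), with ratios of 18.8, 16.0 and 24.2 within replicate numbers 1, 2 and 3, and 0.353% of all genes were called, 0.347% higher. Gata6 did not pass the test with IFN-γ alone against Ctr (at least 1.42-fold higher, edgeR adjusted p = 0.200; the groups did not overlap, as for 13.5% of all genes in the same direction) or when IFN-γ was added to EZH2i (log2 fold change 0.40 ± 0.63, adjusted p = 0.878). With the Ctr libraries at the floor, the size of its interaction of EZH2i and IFN-γ is not determined, and it was not called.

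Both calls of Gata6 rested on few reads. Against Ctr the edgeR call was kept when any one EZH2i, IFN-γ or IFN-γ+EZH2i library was left out, and it was lost when Ctr replicate 1, 2 or 3 was left out (adjusted p = 0.0906, 0.107 and 0.145) and when only the 6 libraries of the comparison were fitted (0.0514), as well as without all libraries of number 1, 2 or 3 (0.0859, 0.818 and 0.139), while the value was higher with EZH2i in 23 of 23 alternatives and called in 16 of them. With IFN-γ present it was called in 9 of 23, and it was lost when any one of IFN-γ replicates 1, 2 and 3 (adjusted p = 0.116, 0.226 and 0.203), IFN-γ+EZH2i replicates 1 and 2 (0.119 and 0.134), Ctr replicates 1, 2 and 3 (0.0741, 0.0737 and 0.0632) or EZH2i replicate 2 (0.0771) was left out. It was also lost with the 6 libraries alone (0.152), with length-scaled TPM (0.0881) and without all libraries of number 1, 2 or 3 (0.104, 1 and 0.201), again with the same direction in all 23. Of the reads assigned to Gata6, 88.1% in EZH2i-OPCs and 78.2% in IFN-γ+EZH2i-OPCs were assigned to the coding transcript that starts at 11052470. In TPM, which divides reads by transcript length, its shares were 61.1% and 44.3%. A short retained-intron transcript starting at 11055038 held 25.1% of the TPM in EZH2i-OPCs, from 8.2 reads. Another, starting at 11059047, held 28.1% with both agents, from 14.2 reads. The divergent transcript 1010001N08Rik, which overlaps the start of Gata6 on the other strand, had at most 3 counts in any library.

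GATA4, a cardiac and endodermal factor that partners with NKX2-5 and TBX5, showed the same arrangement of libraries at a lower level. Gata4 (chromosome 14, 63198922 to 63271692, minus strand) had no counts in the 3 Ctr libraries and 36, 22 and 12 counts in EZH2i-OPCs (1.29, 0.603 and 0.182 CPM). It had 0, 0 and 1 counts in IFN-γ-OPCs and 55, 29 and 8 in IFN-γ+EZH2i-OPCs (2.35, 0.881 and 0.199 CPM). The groups did not overlap in either comparison, where 7.37% and 6.08% of all genes were higher without overlap. Gata4 passed the filter only through the EZH2i-treated libraries, so a difference in this direction was built in. These shares are thus not a like background for it. Gata4 was at least 6.34-fold higher with EZH2i and at least 15.1-fold higher with EZH2i in the presence of IFN-γ, but neither passed the edgeR test (adjusted p = 0.154 and 0.114). The replicate numbers paired the IFN-γ+EZH2i libraries with the IFN-γ libraries, and with this block Gata4 was called there (edgeR adjusted p = 0.00185). The block was fitted over all 12 libraries, and thus also over the Ctr libraries, where pairing was not shown. Gata4 was also called there with DESeq2 (0.000634), with all genes kept regardless of their counts (0.0280) and when IFN-γ+EZH2i replicate 3 was left out (0.0489). Its reads were spread over coding transcripts with starts at 63245271, 63245248 and 63213607, with no single one leading in all 6 EZH2i-treated libraries. Adding IFN-γ to EZH2i gave a log2 fold change of 0.74 ± 0.86 (adjusted p = 0.805), and with both groups at the floor no fold is given for IFN-γ against Ctr.

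**Figure D2:**
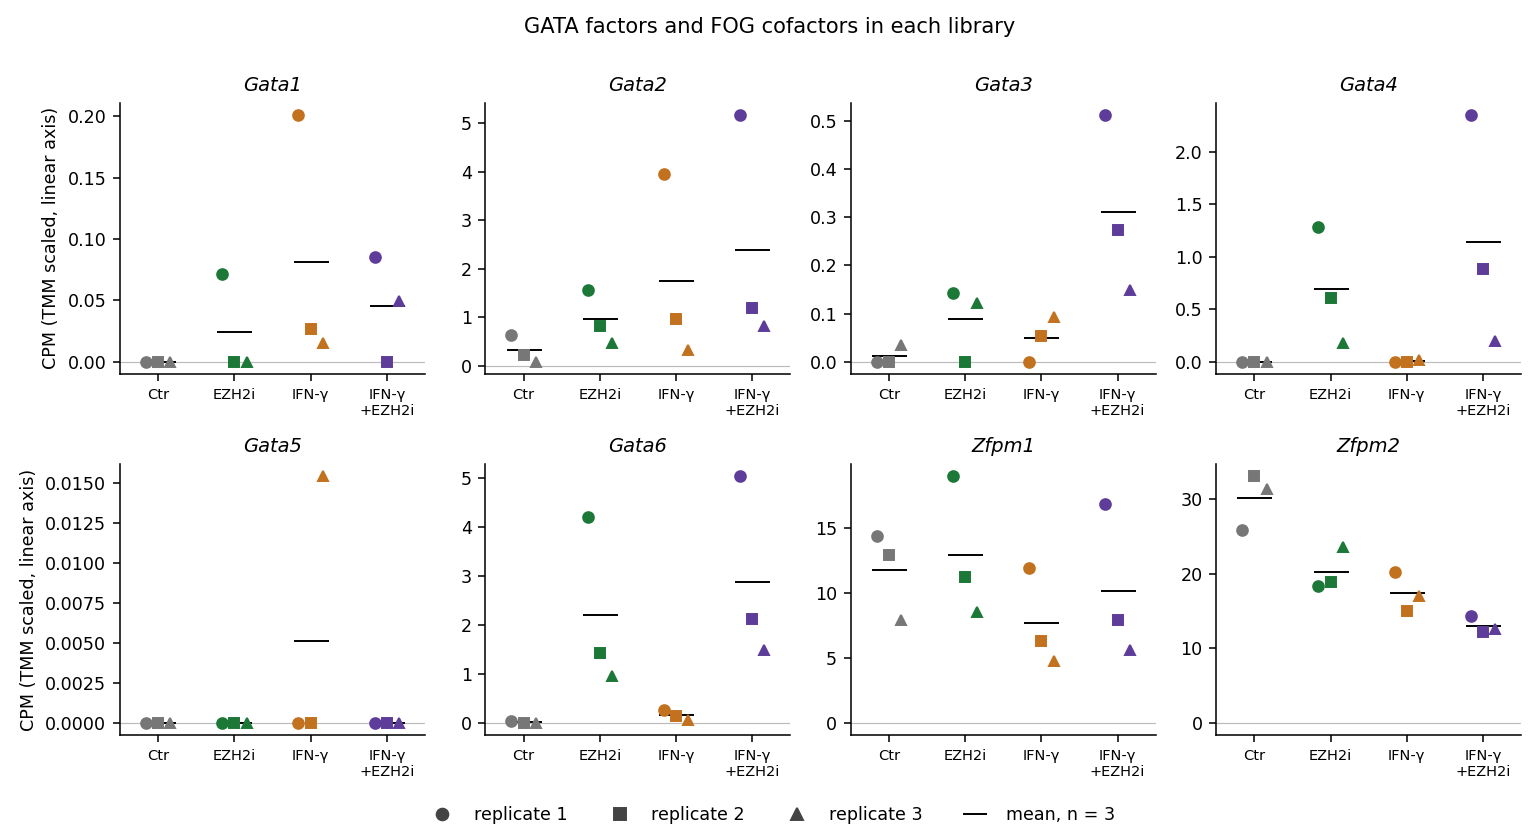
TMM-scaled CPM (linear axis, its own range in each panel) of the 8 genes in each library, by group, with symbols for replicates 1, 2 and 3 and a bar at the mean of 3. Gata4 and Gata6 were at or near 0 without EZH2i and above 0 in all 6 EZH2i-treated libraries, whereas Zfpm2 was highest in Ctr-OPCs (25.8 to 33.0 CPM) and lowest with both agents (12.1 to 14.4 CPM).

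Gata2 encodes a factor of blood progenitors, mast cells and endothelium that also specifies several groups of neurons, and it was the only GATA gene with reads in all 12 libraries. Gata2 (chromosome 6, 88193891 to 88207032, plus strand) was at 0.638, 0.226 and 0.0848 CPM in Ctr-OPCs and at 1.57, 0.822 and 0.471 CPM in EZH2i-OPCs. In IFN-γ-OPCs it was at 3.95, 0.959 and 0.324 CPM, and in IFN-γ+EZH2i-OPCs at 5.17, 1.19 and 0.820 CPM. In CPM, the ranges overlapped in all 4 comparisons, since replicate 1 was the highest and replicate 3 the lowest library of every group. In TPM, the range of EZH2i-OPCs (0.246 to 0.689) lay above that of Ctr-OPCs (0.0642 to 0.232), where replicate 2 was the highest. The other comparisons overlapped in TPM as well. Shares of all genes without overlap were computed for CPM only. Gata2 was not called with EZH2i (log2 fold change 1.63 ± 1.07, edgeR adjusted p = 0.912), with EZH2i in the presence of IFN-γ (0.46 ± 0.92, 0.999), with IFN-γ (2.50 ± 1.07, 0.224) or with IFN-γ added to EZH2i (1.33 ± 0.95, 0.591). In the last of these the replicate numbers paired the libraries, with ratios of 3.29, 1.44 and 1.74 within numbers 1, 2 and 3, and with the block Gata2 was called there (log2 fold change 1.02, edgeR adjusted p = 0.0460). In the other paired comparison, of EZH2i in the presence of IFN-γ, the ratios were 1.31, 1.24 and 2.53 and the block gave no call.

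Pooled over the 3 libraries of a group, the reads of Gata2 were mostly assigned to the transcript from the distal start at 88193891. Its upstream sequence is printed above, and its share was 81.9% in Ctr-OPCs, 57.1% in EZH2i-OPCs, 59.4% in IFN-γ-OPCs and 73.1% with both agents. Single libraries differed. In replicate 2 of EZH2i-OPCs it had 8.67 reads, against 14.9 for a coding transcript starting at 88198334. In replicate 3 with both agents the values were 1.54 and 29.3 reads. With 27 Gata2 reads over the 3 Ctr libraries, the Ctr share rests on few reads. In TPM, the distal transcript held 31.0% in Ctr-OPCs. A shorter coding transcript, also starting at 88198334, held 52.7% there from 2.0 reads. No difference between the shares was tested. Markers of cell types that use GATA2 were low. The 5 mast cell markers had no counts in Ctr-OPCs and EZH2i-OPCs and summed to at most 0.0514 TPM in the other libraries, and the 7 endothelial markers summed to 1.70 to 2.41 TPM in Ctr-OPCs, 3.79 to 6.83 TPM in EZH2i-OPCs, 2.10 to 3.17 TPM in IFN-γ-OPCs and 2.63 to 4.46 TPM with both agents. The endothelial sum was thus higher in all EZH2i libraries than in all Ctr libraries, and its part in the values of Gata2 and Gata6 was not tested. The same held for 6 neuronal markers other than Tubb3, which summed to 6.43 to 8.12 TPM in Ctr-OPCs and 15.6 to 26.0 TPM in EZH2i-OPCs, against 6.45 to 13.3 TPM and 10.5 to 22.6 TPM with IFN-γ and with both agents, whereas Tubb3 itself was at 26.7 CPM in Ctr-OPCs and 916 CPM in IFN-γ-OPCs. The 5 oligodendrocyte markers summed to 307 to 517 TPM in EZH2i-OPCs against 498 to 715 TPM in Ctr-OPCs, and to 234 to 511 TPM with both agents against 516 to 663 TPM with IFN-γ alone, without overlap in the second comparison. None of the 4 of them tested was called, their median log2 fold changes were -0.52 and -0.51, and their part in the members' values was not tested. The 6 markers of pericytes or smooth muscle summed to 6.61 to 9.25 TPM in Ctr-OPCs and 2.81 to 11.8 TPM in EZH2i-OPCs, with overlap. Their sums were 9.23 to 15.9 TPM with IFN-γ and 6.93 to 14.7 TPM with both agents. The 5 fibroblast markers summed to at most 1.00 TPM in any library. The part of these cells in the values of Gata6 was not tested.

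Gata3, known for T cells, the inner ear and sympathetic and V2b neurons, stayed at 0 to 12 counts per library. Gata3 (chromosome 2, 9857078 to 9890034, minus strand) had 0, 0 and 2 counts in Ctr-OPCs, 4, 0 and 8 in EZH2i-OPCs, 0, 2 and 6 in IFN-γ-OPCs, and 12, 9 and 6 in IFN-γ+EZH2i-OPCs. Only in the last group was it found in all libraries. It did not pass the test there against IFN-γ when the filter was left out (edgeR log2 fold change 2.39, adjusted p = 0.914). Gata1, the master regulator of red cells and platelets on the X chromosome (7959260 to 7978071, minus strand), had no counts in Ctr-OPCs, 2, 0 and 0 in EZH2i-OPCs, 6, 1 and 1 in IFN-γ-OPCs, and 2, 0 and 2 with both agents. Gata1 was above 3 counts only in replicate 1 of IFN-γ-OPCs, and Gata3 never in Ctr-OPCs. The genes that overlap Gata3 (Gm13256, 4930412O13Rik and 9230102O04Rik) or Gata5 (Gata5os) had at most 1 count per library, and Gm38708, upstream of Gata2 on the other strand, at most 2. The 7 erythroid markers summed to at most 1.05 TPM in any library.

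The FOG genes were expressed in every group, and Zfpm2 was the member called lower. FOG2 is known from heart, coronary vessel and gonad development, where it restrains GATA4. Zfpm2 (chromosome 15, 40655035 to 41104592, plus strand) was at 25.8, 33.0 and 31.3 CPM in Ctr-OPCs, at 18.4, 18.8 and 23.6 CPM in EZH2i-OPCs, at 20.2, 15.0 and 17.0 CPM in IFN-γ-OPCs, and at 14.4, 12.1 and 12.6 CPM with both agents. In CPM, the treated libraries were below the untreated ones without overlap in all 4 comparisons. In TPM, the range of Ctr-OPCs (2.83 to 5.69) overlapped those of EZH2i-OPCs (3.24 to 4.26) and of IFN-γ-OPCs (2.74 to 3.13). Of all genes, 5.34% were lower without overlap with EZH2i, 4.26% with EZH2i in the presence of IFN-γ, 9.52% with IFN-γ and 9.66% with IFN-γ added to EZH2i. Zfpm2 fell by 0.79 ± 0.16 on the log2 scale with IFN-γ (edgeR adjusted p = 0.00793) and by 0.64 ± 0.16 when IFN-γ was added to EZH2i (adjusted p = 0.0293). Without the replicate block it was the only member called in these comparisons. In them, 8.75% and 8.07% of all genes were called in either direction and 2.1% and 2.17% were called lower. The log2 fold change with EZH2i was -0.57 ± 0.16 (adjusted p = 0.234), and in the presence of IFN-γ it was -0.42 ± 0.16 (adjusted p = 0.624), so neither passed the test. The interaction was 0.15 ± 0.23 (edgeR adjusted p = 1.00).

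The call of Zfpm2 with IFN-γ held in 22 of 24 alternatives, and was lost only when all libraries of replicate 2 or of replicate 3 were left out (adjusted p = 0.300 and 0.105). The call in EZH2i-treated cells held in 16 of 24, and was lost without EZH2i replicate 2 or 3 (0.0565 and 0.131), without IFN-γ+EZH2i replicate 2 or 3 (0.123 and 0.0940), with length-scaled TPM (0.0661) and with the 6 libraries alone (0.0715), and without all libraries of number 2 or 3 (0.285 and 0.341). The 2 coding transcripts of Zfpm2, starting at 40655035 and 40664990, took 58.9% to 65.3% and 25.4% to 31.5% of its reads in the 4 groups. The gene also overlaps 3 short gene models on its own strand (Gm49524, Gm49525 and Gm49526), at 0.16 to 2.85 mean CPM, between which its reads could be split.

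Zfpm1, the partner of GATA1 in blood and of GATA3 in T cells, was not called in any comparison. Zfpm1 (chromosome 8, 122282141 to 122337251, plus strand) was at 14.4, 12.9 and 7.94 CPM in Ctr-OPCs and 18.9, 11.2 and 8.50 CPM in EZH2i-OPCs. It was at 11.9, 6.31 and 4.77 CPM in IFN-γ-OPCs and 16.8, 7.93 and 5.57 CPM with both agents. In CPM, replicate 1 was again the highest and replicate 3 the lowest in every group, and the ranges overlapped. In TPM, replicate 2 was the highest in Ctr-OPCs (3.99 TPM, against 2.67 TPM in replicate 1). In the paired comparisons the ratios within numbers 1, 2 and 3 were 1.41, 1.26 and 1.17 for IFN-γ+EZH2i-OPCs over IFN-γ-OPCs, and 0.886, 0.706 and 0.655 over EZH2i-OPCs, each of one direction, and with the block edgeR called neither. The log2 fold change was 0.14 ± 0.45 with EZH2i, 0.40 ± 0.46 with EZH2i in the presence of IFN-γ, -0.62 ± 0.46 with IFN-γ and -0.36 ± 0.45 with IFN-γ added to EZH2i (edgeR adjusted p from 0.554 to 0.999). Its values are uncertain, as the annotated gene Gm20388 (chromosome 8, 119910841 to 124345722) covers it on the same strand at 49.3, 73.6, 79.0 and 108 mean CPM in the 4 groups. Of the reads given to Zfpm1, 90.5% to 95.4% by group were assigned to its coding transcript. In TPM, the share of this transcript was 63.8% to 73.0%.

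**Figure D3:**
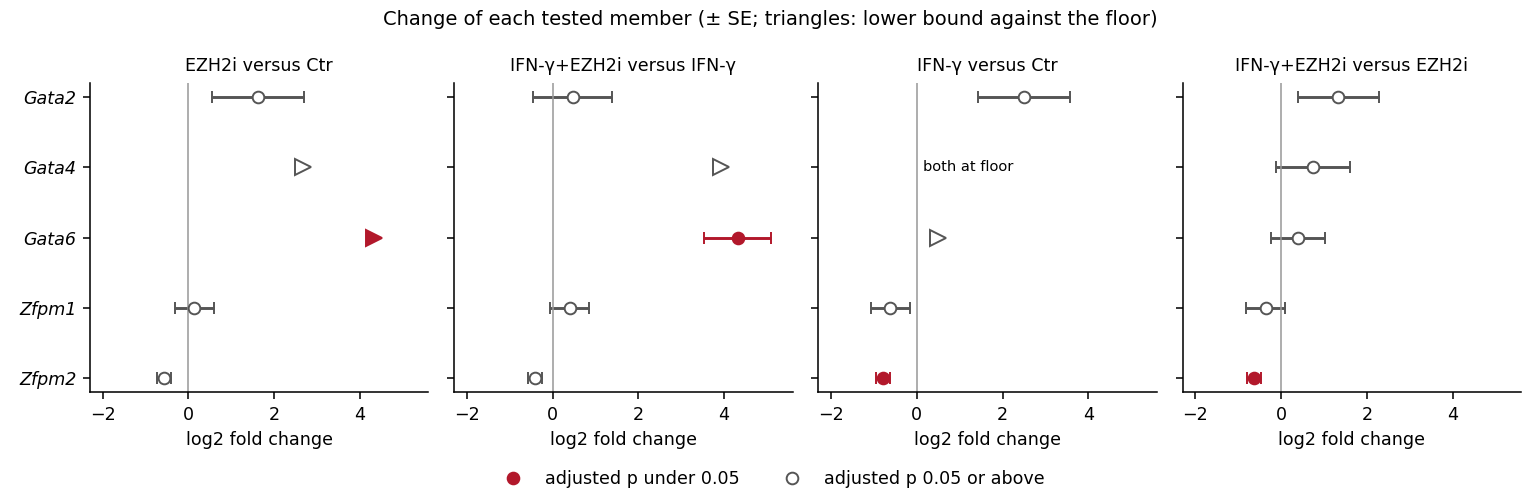
Log2 fold change (± SE) of the 5 tested members in the 4 comparisons from edgeR, with filled symbols for an adjusted p under 0.05 and triangles for lower bounds against a group at the floor. Gata6 was called in both EZH2i comparisons and Zfpm2 in both IFN-γ comparisons, and the other symbols are open.

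Thus, in the fit with group as the only term, 1 of 5 tested members was called in each comparison. Gata6 was higher with EZH2i, with and without IFN-γ, and Zfpm2 lower with IFN-γ, with and without EZH2i. With the replicate block, fitted over all 12 libraries and read in the paired comparisons, Gata4 was also called higher with EZH2i in the presence of IFN-γ. Gata2 was then also called higher when IFN-γ was added to EZH2i. Gata4 and Gata6 passed the filter only through the EZH2i-treated libraries. No member was called for the interaction by edgeR, nor under any alternative including DESeq2, where edgeR called 0% of all genes and 127 genes (0.669%) had an unadjusted p under 0.05. Comparisons that share a group are not independent of each other. Replicate number moved with the levels in CPM of 3 members. Gata2, Gata6 and Zfpm1 were above their group mean in replicate 1 in 4 of 4 groups, by 1.35, 0.86 and 0.65 on the log2 scale on average, while Zfpm2 was in 2 of 4. The labels say that replicates came from different litters but not that a number marks the same litter in every group. Replicate 3 was the deepest library in Ctr-, EZH2i-, IFN-γ- and IFN-γ+EZH2i-OPCs (56969353, 61416883, 66546052 and 42555572 counts). It also had the highest astrocyte marker sum of each of these groups (175, 277, 204 and 260 TPM). The part of depth, astrocytes or other differences between the numbers in the members' values was not tested.

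The genes whose profile over the 12 libraries was most like that of each tested member are given as a description, since the libraries share their groups and depth. For Gata4 these were Hoxa10 (Pearson r = 0.993), Hoxc13 (0.988) and Hoxd3os1 (0.987), the first 2 being homeobox genes of posterior body patterning, and all 3 had at most 1 count per library without EZH2i. For Gata6 they were Dmrt2 (0.991), Ebf3 (0.990) and Hmx2 (0.984), which encode transcription factors, and Gata4 and Gata6 had r = 0.935 with each other. For Gata2 they were Olfm1 (0.966), Dok5 (0.961) and Zfhx3 (0.957), for Zfpm1 Lingo1 (0.988), Celf3 (0.980) and Fndc10 (0.977), and for Zfpm2 Lrrn1 (0.964), Dclre1b (0.962) and Epb41 (0.955).

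Among the partners of GATA factors, Tal1 passed the test in both EZH2i comparisons. It passed the filter on low counts only through the EZH2i-treated libraries, so a difference in this direction was partly built in. TAL1 is a helix-loop-helix factor that forms complexes with GATA1 or GATA2 in blood and acts beside GATA2 and GATA3 in V2b neurons. Tal1 was at 0.248, 0.169 and 0.221 CPM in Ctr-OPCs and at 3.29, 2.33 and 1.41 CPM in EZH2i-OPCs. It was at 0.268, 0.320 and 0.571 CPM in IFN-γ-OPCs and at 2.14, 1.94 and 1.44 CPM with both agents. The EZH2i-treated libraries were above the others without overlap in both comparisons, where 7.37% and 6.08% of all genes were higher without overlap. Given the filter, these shares are not a like background for Tal1. The log2 fold changes were 3.40 ± 0.43 (edgeR adjusted p = 0.00616) and 2.19 ± 0.39 (adjusted p = 0.0401). The first was called in 18 of 23 alternatives, and was lost without Ctr replicate 2 or 3 (0.0539 and 0.0574) or without all libraries of 1 number (0.0623 to 0.764). The second was called in 8 of 23, and was lost when any one of Ctr replicates 1 to 3, IFN-γ replicates 1 to 3, IFN-γ+EZH2i replicates 1 to 3 or EZH2i replicate 2 was left out (0.0508 to 0.223), with the 6 libraries alone (0.192), with length-scaled TPM (0.0838) and without all libraries of 1 number (0.103 to 1), with the same direction throughout.

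The blood partner list held 12 genes, of which 8 were tested. Tal1, with the limit of the filter given above, was the 1 called with EZH2i in each comparison, beside 0.405% and 0.353% of all genes. None was called lower, and with the block 2 were called in the presence of IFN-γ. Without IFN-γ the median log2 fold change of the 8 was 0.61, beside 0.01 for all genes tested, and with it 0.26 beside -0.01. In the IFN-γ comparisons 3 and 2 of the 8 were higher (these and the other list genes named for the IFN-γ comparisons were chosen after their values were seen). In these comparisons 8.75% and 8.07% of all genes were called in either direction, which also stands beside the counts of the other lists below. Runx1 rose by 5.40 ± 0.69 and 4.81 ± 0.65 on the log2 scale, Lmo2 by 1.06 ± 0.23 and 1.23 ± 0.23, and Erg by 1.50 ± 0.32 with IFN-γ alone (edgeR adjusted p from 0.000251 to 0.0122). With the block, 3 of the 8 were called when IFN-γ was added to EZH2i. RUNX1 and ERG are blood and endothelial transcription factors and LMO2 is the bridge between TAL1 and GATA factors.

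The list of heart and mesoderm partners and targets held 14 genes, and none of the 6 tested was called in any comparison by edgeR without the replicate block. Of these, 3 were higher with EZH2i without overlap in both EZH2i comparisons, beside 7.37% and 6.08% of all genes, and are named after their values were seen. They passed the filter on low counts only through the EZH2i-treated libraries, so a difference among them was built in by the filter, and no median of the list is given. Hand2, a factor of the ventricle, limb and sympathetic neurons, had no counts in Ctr-OPCs, 132, 26 and 29 in EZH2i-OPCs, 12, 3 and 3 in IFN-γ-OPCs and 327, 84 and 51 with both agents (edgeR adjusted p = 0.207 and 0.243). Nkx2-5 had no counts in Ctr-OPCs, 28, 13 and 22 in EZH2i-OPCs, 1, 0 and 0 in IFN-γ-OPCs and 22, 23 and 2 with both agents (0.153 and 0.204). Tbx20 had no counts in Ctr-OPCs, 25, 21 and 4 in EZH2i-OPCs, 1, 5 and 0 in IFN-γ-OPCs and 77, 58 and 40 with both agents (0.236 and 0.135). The 3 genes were thus at 0 counts in Ctr-OPCs and at 0 to 12 counts per library with IFN-γ alone. With the replicate block, which applies to both comparisons of IFN-γ+EZH2i-OPCs, 3 of the 6 tested heart genes were called against IFN-γ-OPCs and 4 against EZH2i-OPCs.

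**Figure D4:**
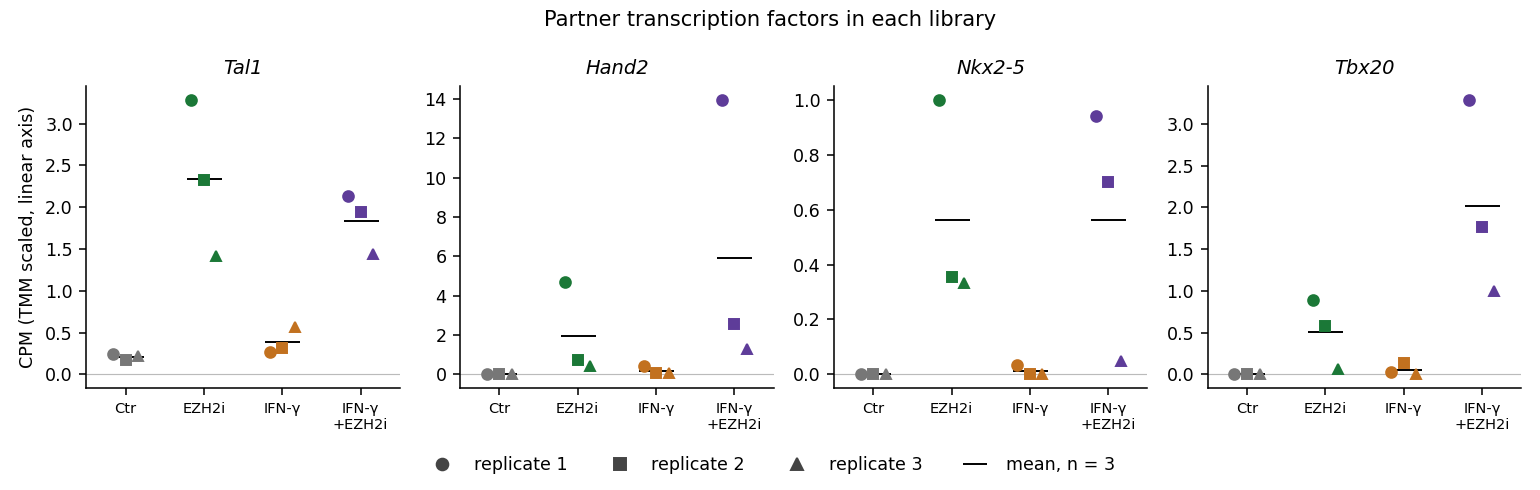
TMM-scaled CPM (linear axis, its own range in each panel) of 4 partner transcription factors of the GATA family in each library, with symbols for replicates 1, 2 and 3 and a bar at the mean of 3. Tal1 ran from 1.41 to 3.29 CPM in EZH2i-OPCs and from 0.169 to 0.248 CPM in Ctr-OPCs, and Hand2, Nkx2-5 and Tbx20 had no counts in Ctr-OPCs.

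Of the 12 endoderm partners and targets, 6 were tested and none was called with EZH2i, but with the block 2 were called with EZH2i in the presence of IFN-γ. Foxa2, a pioneer factor of endoderm named after its values were seen, had 1, 0 and 0 counts in Ctr-OPCs, 24, 14 and 16 in EZH2i-OPCs, 5, 2 and 4 in IFN-γ-OPCs and 43, 23 and 11 with both agents (edgeR adjusted p = 0.118 and 0.182). Its EZH2i-treated libraries were above the others without overlap in both comparisons, beside 7.37% and 6.08% of all genes. However, it passed the filter only through these libraries. Cubn, of the same list, was lower without overlap in both, beside 5.34% and 4.26% of all genes (log2 fold change -0.54 and -1.10, edgeR adjusted p = 0.845 and 0.319). Of the 6 tested endoderm genes, 3 had a log2 fold change above 0 in each EZH2i comparison. In each IFN-γ comparison 1 endoderm gene was called higher (Col4a1, a basement membrane collagen, by 1.58 ± 0.26 and 0.91 ± 0.25 on the log2 scale, edgeR adjusted p = 0.00156 and 0.0442). The Col4a1 call in EZH2i-treated cells held in 11 of 24 alternatives, and with the block 2 endoderm genes were called there. Of the 16 genes of neural programs of GATA2 and GATA3, 7 were tested. Tal1, which is also on this list, was the 1 called with EZH2i in each comparison, beside 0.405% and 0.353% of all genes. Sox1 was the 1 called when IFN-γ was added to EZH2i, where it rose by 1.79 ± 0.43 on the log2 scale (edgeR adjusted p = 0.0214). With the block, 3 of these 7 were called with EZH2i in the presence of IFN-γ and 2 when IFN-γ was added to EZH2i. Of the 8 listed T cell genes linked to GATA3, 2 were tested, Maf and Tcf7, which rose by 1.36 ± 0.23 and 2.76 ± 0.30 on the log2 scale with IFN-γ (edgeR adjusted p = 0.00211 and 7.4e-05) and were called in neither EZH2i comparison.

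Of the corepressors through which FOG proteins act, all 15 listed subunits of NuRD and CtBP were tested and none was called with EZH2i in either comparison, with median log2 fold changes of -0.10 and -0.10, beside 0.01 and -0.01 for all genes. The methyl-CpG binding subunit Mbd2 was the 1 of the 15 called in each IFN-γ comparison, beside 8.75% and 8.07% of all genes in either direction. Mbd2 rose by 0.66 ± 0.13 and 0.74 ± 0.13 on the log2 scale (edgeR adjusted p = 0.00803 and 0.00377). With the block, 2 corepressors were called when IFN-γ was added to EZH2i. Of 9 other genes with GATA-type zinc fingers, such as Trps1, 8 were tested and none was called in any comparison.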

How the data were processed

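Bulk paired-end stranded total RNA-seq of 12 libraries was used. Per the labels and the study's methods, the authors quantified transcripts with Salmon 0.8.2 and deposited estimated counts and TPM per transcript for each library (GRCm38), and the submitters' processing notes also name STAR and DESeq2. The deposited tables of the authors' own comparisons (fold changes and p-values) were not used. Estimated counts and TPM were summed per gene over all 141862 transcripts with GENCODE M21, and counts were rounded to whole numbers. The study's methods name another Ensembl release for its annotation, and all deposited transcript IDs matched this one.

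Counts were fitted in edgeR 4.0.16 (R 4.3.3, limma 3.58.1) with TMM scaling, filterByExpr, group as the only term and all 12 libraries, and Benjamini-Hochberg adjustment over 18995 genes. DESeq2 1.42.0, other filters, scalings and sample sets, and the replicate number as a block were alternatives. The block was fitted over all 12 libraries, so its calls in the paired comparisons also take the numbers as shared by the Ctr libraries. The fits were tested on simulated data. The SE is the log2 fold change over the root of F. Libraries with the same number deviated together for IFN-γ+EZH2i against IFN-γ (r = 0.604, 0.493 and 0.642) and against EZH2i (0.53, 0.496 and 0.621), and these were treated as paired from the data. In the comparisons of EZH2i and of IFN-γ with Ctr, number 2 had r = 0.0467 and 0.0854, and these were not. The number of libraries limits the p-values, and depth limits the GATA genes: 3 counts correspond to 0.0455 to 0.169 CPM. Floors cover counting error only, while SD and SE include the variation between libraries.

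Named genes were all 8 members, list genes called with EZH2i (at most 4 a list), neighbours within 10 kb or overlapping, and the 3 most correlated genes per tested member (log2 CPM, prior count 2). Of the transcripts with at least 10% of a member's TPM in any group, some are named. List genes not called with EZH2i, and Tubb3, are exceptions named after their values were seen. The members and lists were chosen with earlier results of these data known. Sequences came from RefSeq (GRCm38.p6), and promoter windows were taken for 5 of the 8 members, with none for Gata4, Gata6 and Zfpm2. Member windows on chromosome 18, where Gata6 lies, were left out of the search, so whether Gata6 has one was not determined.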

Additional observations from a re-analysis of the deposited data

How the results depend on the processing

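With 3 libraries a group and few reads, the calls of members depended on the fit. With EZH2i alone, 1 member was called (Gata6), and the number was 2 with DESeq2 and with no filter on low counts (Gata4 and Gata6), 4 with the replicate block in edgeR and in DESeq2 (Gata2, Gata4 and Gata6 higher, Zfpm2 lower), 0 with only the 6 libraries of the comparison, 0 with at least 10 counts in every library, a filter that removes Gata6, and 0 to 1 with libraries left out. With EZH2i in the presence of IFN-γ it was 2 with DESeq2, with no filter and with the block (Gata4 and Gata6), 0 with length-scaled TPM, with the 6 libraries and with the strict filter, and 0 to 2 with libraries left out. With IFN-γ alone it was 4 with the block (Gata2 and Gata6 higher, Zfpm1 and Zfpm2 lower) and 0 to 1 with libraries left out. With IFN-γ added to EZH2i it was 2 with the block (Gata2 higher, Zfpm2 lower), 0 with length-scaled TPM and with the 6 libraries, and 0 to 1 with libraries left out. Replicate numbers were not shown to pair the Ctr libraries, so the block's 4 calls in each Ctr comparison are hints only. The block changed no call for the interaction. Over all members, comparisons and alternatives, 446 values kept direction and side of the threshold, 31 lost and 21 gained a call, and 12 changed sign, all of them with libraries left out and none of them called.

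The log2 fold changes that changed sign with libraries left out ranged from -0.25 to 0.36 for Zfpm1 with EZH2i, from -0.78 to 1.91 for Gata2 and from -0.18 to 0.86 for Zfpm1 with EZH2i in the presence of IFN-γ, and from -0.28 to 1.27 for Gata6, from -0.34 to 1.55 for Gata4 and from -0.95 to 0.028 for Zfpm1 with IFN-γ added to EZH2i. For the interaction they ranged from -2.40 to 0.28 for Gata2, from -0.014 to 0.28 for Zfpm2 and from -0.32 to 0.72 for Zfpm1. Over all genes tested, the alternatives called 0 to 1301 genes with EZH2i (77 as reported, 771 with the block), 0 to 1195 with EZH2i in the presence of IFN-γ (67, 748), 548 to 4505 with IFN-γ (1663, 4032) and 557 to 4020 with IFN-γ added to EZH2i (1533, 3661).

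The cause of these changes was not tested, except that the strict filter leaves out Gata2, Gata4 and Gata6 by construction. The fit of all libraries of one number left out, and DESeq2 with the block, were added after seeing the data.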
